A study of Homo sapiens with 12 samples.

Results

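The 1837 merged regions described here lie in 136 wide H3K27ac domains that were present in both WT clones and in neither EP300-KO clone of the lymphoma line SUDHL4. H3K27ac is acetylation of lysine 27 of histone H3. In each clone, peaks on chromosomes 1 to 22 were stitched across gaps of up to 12500 bases, and a stitched stretch holding at least 10 kb of peaks was called a wide domain. Overlapping wide domains of the 6 clones were joined into 645 domains, and 136 of them met the rule. The peaks of all 6 lists formed 48876 merged regions over the genome, of which 1837 lay fully inside these 136 domains. A merged region is the union of peaks that share at least 1 base. The members were thus selected on the covered lengths of the WT and EP300-KO clones, and differences between these 2 genotypes are given as descriptions, with no test read as support. For comparison, 235 domains with 4175 regions were wide in all 6 clones and are called kept domains.

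SUDHL4 was derived from a diffuse large B-cell lymphoma and is of germinal-centre type. All 6 clones were made with CRISPR/Cas9 and grown from single cells. The WT controls are 2 clones edited at PPP1R12C with both acetyltransferase genes intact, the CREBBP-KO clones were made with guides against exons 15 and 20 of CREBBP, and the EP300-KO clones with guides against exons 17 and 24 of EP300. The label of CREBBP-KO clone 1 gives a different exon from the exon 15 named in its protocol. Each genotype is thus represented by 2 clones, and the spread between them includes any difference between single cells. Clones are numbered 1 and 2 within a genotype, and these numbers pair nothing across genotypes.

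CREBBP and EP300 are paralogous acetyltransferases recruited by transcription factors, and H3K27ac is one of the marks they write. The mark is found at active promoters and enhancers. Clusters of acetylated elements close to each other form wide domains, often named super-enhancers, which are known for lying near genes that set cell identity. In germinal-centre B cells such genes include BCL6, the transcriptional repressor that maintains the germinal-centre state.

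The promoters of 4 genes are shown because their domains stand at both ends of the range described below. ANKRD33B and GCSAM lie in the domains with the lowest and the third lowest EP300-KO coverage as a share of WT, and BCL6 and JUNB in those with the highest and the third highest share. The sequences are those of RefSeq on GRCh38.p14, from 250 bases before to 50 after the listed start, 5′ to 3′ on the gene's strand. Capitals mark the GC box GGGCGG, the CCAAT box CCAAT and the TATA box TATAAA on either strand, and matches may overlap each other. The ANKRD33B promoter (plus strand) is at chr5:10563820-10564119, that of GCSAM (minus) at chr3:112133199-112133498, that of BCL6 (minus, the first of 2 starts in the table) at chr3:187745419-187745718 and that of JUNB (plus) at chr19:12791236-12791535.
ANKRD33B: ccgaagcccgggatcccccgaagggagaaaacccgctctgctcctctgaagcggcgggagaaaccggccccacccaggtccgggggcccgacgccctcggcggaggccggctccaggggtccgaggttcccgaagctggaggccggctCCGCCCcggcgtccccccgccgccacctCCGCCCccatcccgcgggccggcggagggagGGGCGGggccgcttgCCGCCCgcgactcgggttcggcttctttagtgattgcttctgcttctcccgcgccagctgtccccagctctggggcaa
GCSAM: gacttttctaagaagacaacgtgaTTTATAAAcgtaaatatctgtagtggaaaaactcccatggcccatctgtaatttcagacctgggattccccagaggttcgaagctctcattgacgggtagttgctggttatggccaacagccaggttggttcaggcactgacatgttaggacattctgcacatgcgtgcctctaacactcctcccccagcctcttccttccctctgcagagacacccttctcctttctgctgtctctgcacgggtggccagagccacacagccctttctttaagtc
BCL6: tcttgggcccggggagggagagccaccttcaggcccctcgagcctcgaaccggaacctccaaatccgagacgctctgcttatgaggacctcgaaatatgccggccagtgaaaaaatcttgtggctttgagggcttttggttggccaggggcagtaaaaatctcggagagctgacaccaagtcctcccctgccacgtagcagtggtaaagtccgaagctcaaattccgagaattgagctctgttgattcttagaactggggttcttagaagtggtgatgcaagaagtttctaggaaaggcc
JUNB: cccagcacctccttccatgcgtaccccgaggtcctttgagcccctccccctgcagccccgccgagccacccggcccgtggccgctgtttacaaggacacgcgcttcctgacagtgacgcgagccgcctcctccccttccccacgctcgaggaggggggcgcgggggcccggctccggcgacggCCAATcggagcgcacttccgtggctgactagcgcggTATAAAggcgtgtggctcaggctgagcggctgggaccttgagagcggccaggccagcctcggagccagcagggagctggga

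The 4 promoters differ in base composition within each pair. ANKRD33B has 74.7% GC, 35 CpG dinucleotides and 4 GC boxes, while GCSAM has 50% GC, 6 CpG and 2 overlapping matches of the TATA box. BCL6 has 53.0% GC, 12 CpG and no match to the 3 motifs in this window, and JUNB has 71.0% GC, 29 CpG, 1 CCAAT box and 1 TATA box. Over 35116 promoters of this length the median is 58.7% GC with 14 CpG, and 45.0% hold a GC box, 34.6% a CCAAT box and 11.5% a TATA box. At either end of the range, 1 promoter is richer and 1 poorer in CpG than the median.

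The peak lists held 35054 to 46940 peaks over 26.1 to 35.1 Mb. The second CREBBP-KO clone had the most covered sequence and the EP300-KO clones the least. The EP300-KO lists covered 80.3% of the WT mean in all, and 83.0% outside the joined domains. Depth per library is unknown, since the lists give no read counts, so no interval covers sequencing depth. The starts of 5 of 5 B-cell markers (CD79A, CD79B, MS4A1, PAX5 and BCL6) had a peak within 2 kb in all 6 clones. CD3E, CD14 and ALB, markers of T cells, monocytes and liver, had none in any clone. Genes are placed on hg19 by general knowledge, not from a file, and their chromosomes and order were checked against the GRCh38 gene table: 53 of 53 symbols matched.

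In the lost domains the EP300-KO clones kept a good part of the acetylated sequence. The 136 domains held 1.85 and 1.79 Mb of peaks in the WT clones, 1.59 and 1.99 Mb in CREBBP-KO, and 1.09 and 1.17 Mb in EP300-KO. The EP300-KO clones had the least, and the CREBBP-KO clones lay on either side of WT. The EP300-KO mean was 1.13 ± 0.0544 Mb (SD, n = 2), 62.0% of the WT mean of 1.82 ± 0.0406 Mb. The share of each list's covered sequence that fell in these domains was 5.46% and 5.73% in WT, 5.62% and 5.67% in CREBBP-KO, and 4.19% and 4.46% in EP300-KO. In kept domains, which the rule chose to remain wide, the EP300-KO clones covered 78.9% of the WT mean.

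The fall differed widely from domain to domain. The EP300-KO mean of a single lost domain ranged from 11.9% to 94.6% of WT, with a median of 65.5% and quartiles of 54.2% and 75.2%. It was under 50% in 27 domains, 50 to 75% in 74, 75 to 90% in 33 and at least 90% in 2. In each of the 136 domains both EP300-KO clones were below both WT clones, which was so for 89.0% of all joined domains. A lost domain held a median of 12.6 and 12.1 kb of peaks in the WT clones, and of 8.03 and 8.58 kb in the EP300-KO clones. In 14 and 16 domains the EP300-KO clones still held 10 kb or more in all, spread over more than 1 stitched stretch. More than 1 stretch was present in 1 and 11 of the 136 domains in the WT clones, in 25 and 8 in CREBBP-KO, and in 45 and 38 in EP300-KO. A domain could thus leave the wide class by shrinking or by splitting at a gap.

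**Figure D1:**
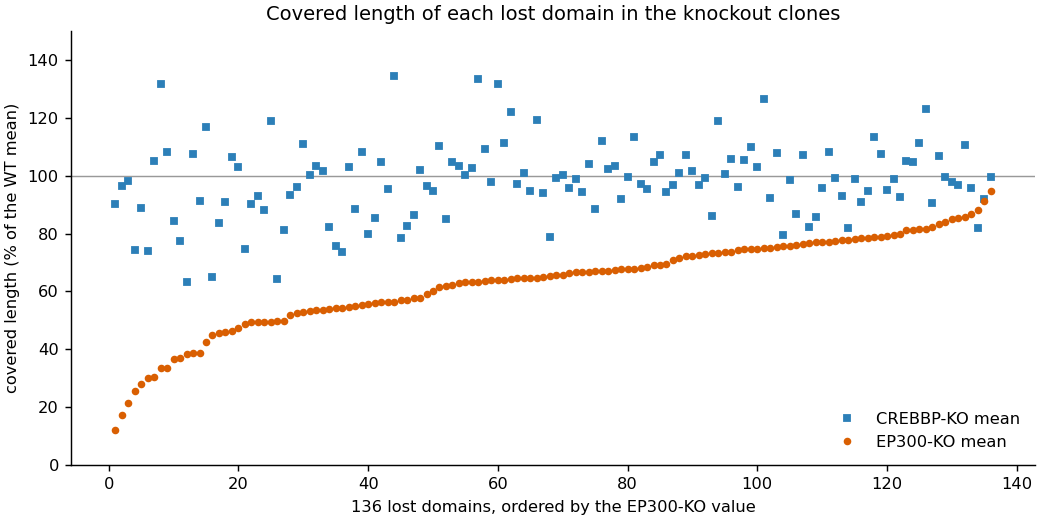
Covered length of each of the 136 lost domains as a percentage of the WT mean (y axis), with domains ordered by the EP300-KO value (x axis); orange circles are means of 2 EP300-KO clones and blue squares means of 2 CREBBP-KO clones. EP300-KO runs from 11.9% to 94.6%, while CREBBP-KO runs from 63.1% to 134%.

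Several domains lay close to the 10 kb limit. The smaller WT stretch was under 11 kb in 46 domains, the larger EP300-KO stretch was over 9 kb in 47, and both held in 11. The domain with the lowest WT value, chr12:53990668-54021404, had widest stretches of 10.61 and 10.02 kb in the WT clones against 5.938 and 6.313 kb in EP300-KO. The domain with the highest EP300-KO value, chr14:71107511-71135780, had 9.354 and 9.986 kb against 15.3 and 13.58 kb in WT. Just outside the rule, chr5:148184892-148212645 had 12.74 and 9.999 kb in WT, and chr6:26020314-26034670 had 9.65 and 10.02 kb in EP300-KO. At the far end, 15 domains had no stretch of 5 kb or more in either EP300-KO clone.

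The deepest fall as a share of WT was over ANKRD33B, at chr5:10561970-10635891 on hg19. Its 34 regions held 20.3 and 20.8 kb of peaks in WT, 15.5 and 21.6 kb in CREBBP-KO, and 2.08 and 2.79 kb in EP300-KO. The EP300-KO clones were far below the other 4, while one CREBBP-KO clone was below and one above the WT pair. The first 17 regions of the domain, up to position 10602375, had no peak in either EP300-KO clone, although 4 of them exceeded 1 kb in at least 1 WT clone. What remained lay mainly in region 19 (chr5:10607347-10610057), with 1418 and 1587 bases in EP300-KO against 2524 and 2521 in WT. The domain's last large region, chr5:10631011-10634578, had 3541 and 3389 bases in WT and 0 and 274 in EP300-KO.

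GCSAM encodes a germinal-centre B-cell protein that restrains cell motility, and its domain at chr3:111831865-111855956 kept 21.2%. It held 15.2 and 13.8 kb in the WT clones, 10.8 and 17.7 kb in CREBBP-KO, and 1.62 and 4.54 kb in EP300-KO. The EP300-KO clones differed from each other by more than the WT clones did, and both were below the other 4. The region at the domain's start, chr3:111831865-111836875, had 4443 and 3931 bases in WT and 0 and 1346 in EP300-KO. The region that kept most, chr3:111847992-111852145, had 3303 and 3681 bases in WT and 1459 and 2224 in EP300-KO.

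The other 3 domains of this group have no gene named here. The one at chr7:148198373-148224679 held 10.9 and 11.4 kb in the WT clones, 7.77 and 13.7 kb in CREBBP-KO, and 1.8 and 2.03 kb in EP300-KO. At chr15:59685065-59706503 the values were 14.8 and 12.6 kb in the WT clones, 7.65 and 12.8 kb in CREBBP-KO, and 3.22 and 3.8 kb in EP300-KO. At chr6:139583518-139616101 they were 13.8 and 11.6 kb in the WT clones, 11.1 and 11.4 kb in CREBBP-KO, and 2.85 and 4.23 kb in EP300-KO. In all 3, the EP300-KO clones lay below every other clone. In the chromosome 15 domain the first CREBBP-KO clone was also well below WT, whereas the second lay between the WT clones.

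**Figure D2:**
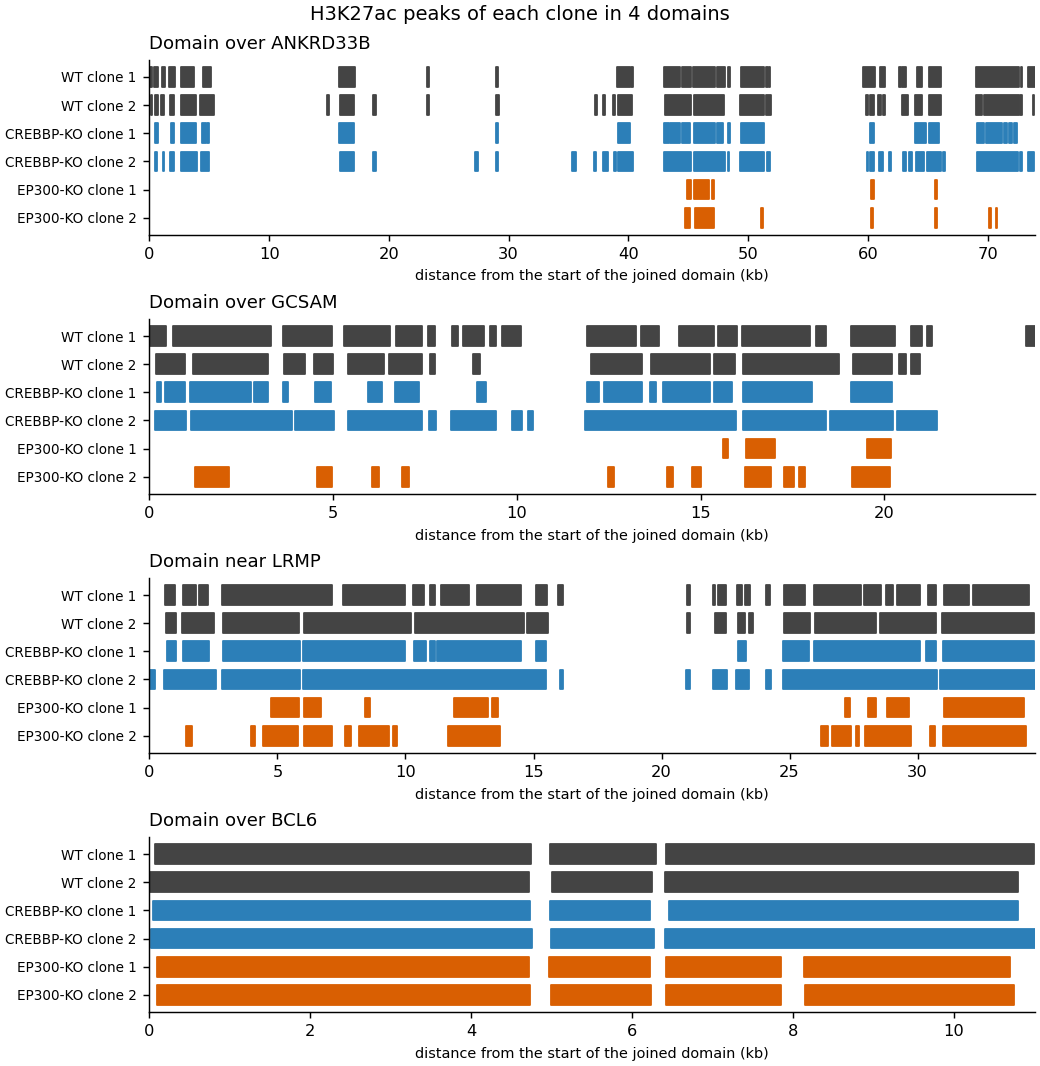
Peaks of each clone (rows; gray WT, blue CREBBP-KO, orange EP300-KO) in the domains over ANKRD33B, GCSAM and BCL6 and near LRMP, against distance from the start of the joined domain in kb. EP300-KO peaks are short over ANKRD33B and GCSAM (2.08 and 2.79 kb, and 1.62 and 4.54 kb in all). They number 5 and 7 over ANKRD33B, against 28 and 30 in WT. Over GCSAM they number 3 and 11, against 20 and 15 in WT and 16 and 12 in CREBBP-KO. Over BCL6 they are nearly as long as in WT (9.89 and 9.9 kb against 10.6 and 10.3 kb).

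At the other end, the domain over the start of BCL6 (chr3:187458021-187469020) changed little. Its 3 regions held 10.6 and 10.3 kb in the WT clones, 10.3 and 10.6 kb in CREBBP-KO, and 9.89 and 9.9 kb in EP300-KO. It entered the lost class with a difference of under 1 kb from the WT clones, because the total passed below 10 kb. The region at its start had 4682 and 4715 bases in WT and 4620 and 4638 in EP300-KO, and the last one 4571 and 4376 against 4009 and 4022. The domain holding CD52, a lymphocyte surface glycoprotein, kept 91.3%, with 16.5 and 15.1 kb in WT and 14.7 and 14.2 kb in EP300-KO. Its widest stretches in EP300-KO held 9.41 and 9.33 kb. In CREBBP-KO the CD52 domain held 12.8 and 16.2 kb, with widest stretches of 8.2 and 9.69 kb. It was thus wide in neither CREBBP-KO clone. The domain holding JUNB, an AP-1 transcription factor, kept 88.2%, and that over SEMA4A, a semaphorin, 86.8%. A domain inside the immunoglobulin lambda locus (chr22:22510823-22574699) kept 85.8%, with 21.8 and 21.0 kb in WT and 18.3 and 18.5 kb in EP300-KO. JUNB held 10.5 and 11.2 kb in WT and 9.77 and 9.38 kb in EP300-KO.

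Among the 10 domains with most WT coverage, the EP300-KO share ran from 11.9% over ANKRD33B to 85.8% in the immunoglobulin lambda locus. The one with most, chr13:30866224-30951647, held 27 and 27.9 kb in the WT clones, 21.2 and 31.2 kb in CREBBP-KO, and 15.1 and 15.8 kb in EP300-KO. The domain inside HIVEP3 (chr1:42087364-42150157), a zinc-finger transcription factor gene, had 38 regions, the most of any lost domain. It held 20.7 and 25.5 kb in the WT clones, 22.6 and 25.9 kb in CREBBP-KO, and 6.23 and 7.82 kb in EP300-KO. Both CREBBP-KO values lay within or near the WT range there and the EP300-KO values were the lowest 2 of 6.

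Near LRMP, which encodes a lymphoid membrane protein, the domain chr12:25145275-25179843 held 21.1 and 24.0 kb in the WT clones, 22.1 and 26.0 kb in CREBBP-KO, and 8.03 and 12.9 kb in EP300-KO. Over STIM1, the calcium sensor of the endoplasmic reticulum, the values were 21.9 and 20.8 kb in the WT clones, 15.4 and 20.3 kb in CREBBP-KO, and 9.13 and 10.4 kb in EP300-KO. Over SORL1, a sorting receptor, they were 21.0 and 18.7 kb, 12.1 and 17.1 kb, and 10.4 and 11.2 kb in the same order. At STIM1 and SORL1 both CREBBP-KO clones were below both WT clones too, which was not the case near LRMP. Inside CAMK2D, a calcium- and calmodulin-dependent kinase gene, both CREBBP-KO clones were above both WT clones, with 21.6 and 23.7 kb in the WT clones, 26.8 and 32.8 kb in CREBBP-KO and 13.6 and 15.3 kb in EP300-KO. The last domains of this group, on chromosome 10 (chr10:89822525-89882481) and over ZNF395 and PNOC on chromosome 8, kept 69.2% and 49.8% in EP300-KO.

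**Figure D3:**
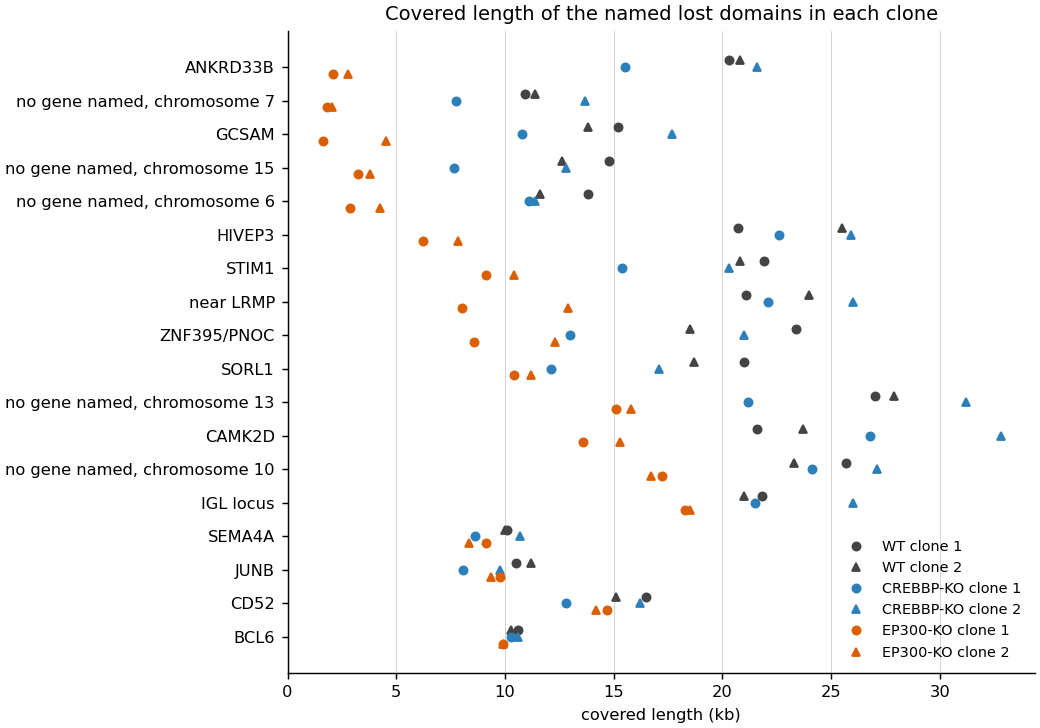
Covered length in kb (x axis) of the 18 named lost domains in each of the 6 clones (circles clone 1, triangles clone 2; gray WT, blue CREBBP-KO, orange EP300-KO), ordered from the smallest EP300-KO share at the top. EP300-KO points sit at 2.08 and 2.79 kb over ANKRD33B and move up to the other clones toward BCL6 at the bottom.

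Of 40 genes in 8 lists of germinal-centre and B-cell biology, 4 were placed in lost domains by general knowledge of hg19 positions. They were BCL6 among 6 germinal-centre factors, EBF1 among 6 B-lineage factors, CD22 among 8 genes of B-cell receptor signalling and TRAF1 among 5 light-zone genes. None of the listed 5 dark-zone, 3 plasma cell, 4 MHC class II and 3 apoptosis genes was placed in one. A gene was named for 55 of the 136 lost domains, and no share is given for kept or all joined domains. The counts are thus a description, and an absence from them is not read as a result. Related genes outside the lists, picked after their values were seen, lay near or in a lost domain. Near HLA-DQA1, an MHC class II gene, the domain chr6:32571761-32607631 held 12.6 and 12.4 kb in the WT clones, 6.2 and 10 kb in CREBBP-KO, and 5.29 and 5.97 kb in EP300-KO. Over BCL2L1, which encodes an inhibitor of apoptosis, chr20:30250205-30311798 held 10.1 and 11.6 kb, 9.98 and 14.6 kb, and 6.32 and 8.36 kb in the same order. EBF1 is a transcription factor that specifies the B lineage, and a domain inside it (chr5:158302237-158327749) held 10.5 and 10.5 kb in the WT clones, 10.1 and 11.5 kb in CREBBP-KO, and 4.51 and 5.39 kb in EP300-KO. CD22 is an inhibitory co-receptor of the B-cell receptor, and the domain over its start (chr19:35804740-35824583) held 13.2 and 15.2 kb, 13.3 and 15.9 kb, and 7.34 and 7.83 kb. TRAF1 is an adaptor of tumour necrosis factor receptors, and its domain (chr9:123686599-123707576) held 11.7 and 12 kb, 10.9 and 12.2 kb, and 7.16 and 8.16 kb. At EBF1, CD22 and TRAF1 the EP300-KO clones kept 47.2%, 53.6% and 64.6%, and the CREBBP-KO clones overlapped the WT values.

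The member regions fell into classes by the clones that held a peak in them. Of the 1837 regions, 711 had a peak in both WT and both EP300-KO clones, 131 in both WT and 1 EP300-KO clone, and 366 in both WT and no EP300-KO clone. A further 432 had a peak in 1 WT clone, and 197 in none. The 711 shared regions held 1500 kb in the WT clones and 1090 kb in EP300-KO, and made up 59.2% of the difference in covered length between the genotypes. The 366 absent regions held 156 kb in WT, 22.6% of that difference, and had a median of 341 bases in WT against 1580 in the shared ones. The larger part of the missing length thus came from regions that shortened. Most regions that disappeared were short, with 23 of the 366 at 1000 bases or more in WT and 5 above the median of the shared ones. Of the 1208 regions with a peak in both WT clones, 30.3% had none in either EP300-KO clone, against 14.8% over all such regions of the genome. With all lists cut to equal length by score the member share was 20.3%, in 108 domains that met the rule, and it was 45.2% without the second WT clone. Since the rule used these clones, the gap to the genome share is a description.

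The order of regions within a domain was taken from the CREBBP-KO clones, whose lengths did not enter the rule except in joining domains. The longest region of a domain had a peak in both EP300-KO clones in 134 of 136 domains, with a median of 4430 and 4350 bases in WT, 4130 and 4730 in CREBBP-KO, and 3140 and 3330 in EP300-KO. The share present in both EP300-KO clones was 94.1% at rank 2, 72.6% at rank 4, 38.5% at rank 6 and 14.3% at rank 10. Among the 512 regions at rank 12 and lower it was 2.73%. There the median length was also 0 in WT clone 2 and CREBBP-KO clone 1, and it was 140 bases in WT clone 1. No share present in the WT or CREBBP-KO clones is given by rank. In kept domains the share at the same ranks was 99.1%, 93.9%, 76.0% and 39.2%. Regions in kept domains were also longer at the same rank, with a median of 6390 bases in CREBBP-KO at rank 1 against 4390 in lost domains. Most lost domains thus retained their longest regions in EP300-KO. The smaller regions were often absent there and, at the lowest ranks, from other clones as well. The gap between lost and kept domains is a description, since the rule used the EP300-KO clones.

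**Figure D4:**
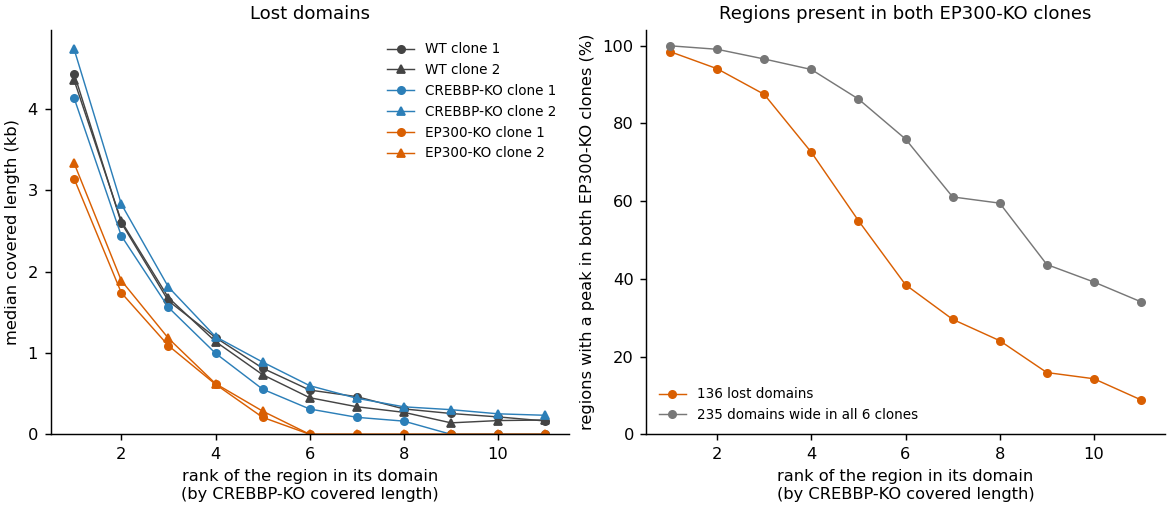
Left, median covered length in kb (y axis) of regions at ranks 1 to 11 in their lost domain (x axis, ranked by CREBBP-KO length) in each clone; right, percentage of regions with a peak in both EP300-KO clones at each rank, for 136 lost (orange) and 235 kept (gray) domains. The EP300-KO lines reach 0 at rank 6 and that of CREBBP-KO clone 1 at rank 9. The share present falls from 98.5% to 8.86% in lost domains and from 235 of 235 to 34.1% in kept ones.

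At a given CREBBP-KO length, regions of lost domains were missing more often from EP300-KO than regions elsewhere. The rule favours this, since it fixed lost domains as not wide in the EP300-KO clones and kept domains as wide. The shares are thus a description. Among regions with a peak in both CREBBP-KO clones and 500 to 1000 bases there, 59.7% of 231 had a peak in both EP300-KO clones in lost domains, against 70.7% in kept domains and 86.4% over all regions. Between 250 and 500 bases the shares were 29.4%, 40.7% and 69.4%. At 2000 bases or more they were 96.9%, 99.7% and 99%. In the WT clones the shares for 500 to 1000 bases were 98.3%, 94.9% and 96.6%, a range that the choice of domains by WT length also touches. By position, the share present in both EP300-KO clones was 40.1% for regions centred within 10% of the domain's span from either end, 35.2% at 30 to 40% and 41.5% around the middle.

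Among the regions with a peak in all 6 clones, 693 lay in lost domains. Their median length was 1611 and 1649 bases in WT, 1442 and 1764 in CREBBP-KO, and 1054 and 1139 in EP300-KO. Both EP300-KO clones were shorter than both WT clones in 520 of them (75%), against 45.4% of 21911 such regions over the genome, and longer in 14 (2.02%), against 10.0%. The rule chose domains long in WT and short in EP300-KO, so these gaps to the genome share are a description. Both CREBBP-KO clones were shorter in 119 (17.2%, background 17.9%) and longer in 112 (16.2%, background 15.1%), near the background in both directions. The number of peaks in these regions was 1130 and 1050 in WT and 1160 and 1187 in EP300-KO, so the shortening came with no fewer peaks. In 42 regions a single peak in both WT clones was several peaks in both EP300-KO clones, and in 21 the reverse held.

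The longest regions without any EP300-KO peak were at ABCA1, a cholesterol transporter gene, and CORO1C, a coronin gene. The ABCA1 region (chr9:107680842-107683265) had 2082 and 2231 bases in WT, 2295 and 2392 in CREBBP-KO and 0 in both EP300-KO clones. The CORO1C region (chr12:109030600-109032976) had 1843 and 1981 bases in WT, 2128 and 2377 in CREBBP-KO and 0 in EP300-KO. Both were as long or longer in CREBBP-KO than in WT. The other 3 regions of this kind lay in the lost domains on chromosomes 15 and 7 and inside HIVEP3. In that on chromosome 15, chr15:59686642-59689029, the first CREBBP-KO clone was short too, with 364 bases against 1613 in the second and 2388 and 1427 in WT.

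The 5 longest regions with a peak in all clones were all shorter in both EP300-KO clones than in both WT clones, by very different amounts. Near LRMP, chr12:25148104-25160822 had 10549 and 12152 bases in WT, 11250 and 12529 in CREBBP-KO, and 3535 and 6290 in EP300-KO. A region at chr2:145435498-145445659 had 8133 and 9048 bases in WT and 3463 and 4063 in EP300-KO. By contrast, at RFTN1, which encodes a lipid raft protein of B cells, chr3:16411820-16422788 had 10645 and 10530 bases in WT and 9836 and 9270 in EP300-KO. At TNFAIP8, an apoptosis regulator, chr5:118603967-118613900 had 9098 and 9361 bases in WT and 8321 and 8840 in EP300-KO. The region chr2:9684004-9692845 had 8492 and 8675 bases in WT and 7588 and 7673 in EP300-KO.

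The authors' score per peak placed the members near the middle of each list. The median percentile of peaks inside lost domains was 45.6 and 45.1 in the WT lists, 43.8 and 44.4 in CREBBP-KO, and 43.7 and 44.3 in EP300-KO. Inside kept domains it was 50.4 and 49.0, 47.8 and 47.8, and 47.1 and 47.5. The meaning of the score is not stated, so these are ranks within a list only.

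Without CREBBP the same domains stayed close to WT on average. The CREBBP-KO mean of a lost domain had a median of 98.4% of WT, with quartiles of 90.7% and 105% and a range of 63.1% to 134%. Of the 136 domains, 82 were wide in both CREBBP-KO clones, 48 in 1 and 6 in none. The first CREBBP-KO clone, with 28.2 Mb of peaks, was wide in 82 of them, and the second, with 35.1 Mb, in 130. The part of list length in that gap was not tested. WT lengths had chosen the domains, so they also touch this comparison.

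On log2(covered bases + 100), centred on each clone's median over regions covered in all 6 clones, limma called 1 lost domain lower and 1 higher in CREBBP-KO than in WT at a Benjamini-Hochberg adjusted p under 0.05. Over all 645 joined domains the call rates were 0.62% lower and 1.24% higher, and the lost domains, at 0.735% each, were close to them. At an unadjusted p under 0.05 there were 28 of 136 lost domains and 130 of all 645, and the median log2 difference was 0.01 in the lost domains and 0.07 over all. The 2 CREBBP-KO clones were both shorter than either WT clone in 22 domains (16.2%, background 9.92%) and both longer in 13 (9.56%, background 17.8%).

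The domain that fell lay between BCL6 and LPP, at chr3:187802196-187841552. It held 14.6 and 13.1 kb in the WT clones, 8.53 and 9.31 kb in CREBBP-KO and 6.89 and 6.9 kb in EP300-KO, so that all 4 knock-out clones were below both WT clones. The log2 difference between CREBBP-KO and WT was -0.59 ± 0.10 (SE), with a limma adjusted p of 0.032. The fall was uneven along the domain, since chr3:187802196-187806520 had 4325 and 4250 bases in WT and 4066 and 4113 in CREBBP-KO. In the region chr3:187808965-187811186, by comparison, 2220 and 2202 bases in WT stood against 555 and 682 in CREBBP-KO and 0 and 182 in EP300-KO. The adjusted p was 0.15 without the first CREBBP-KO clone, 0.12 without the second, 0.065 with only the 4 clones compared and 0.14 with no centring.

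The domain that rose in CREBBP-KO lay inside DEPTOR, an inhibitor of mTOR signalling, on chromosome 8 (chr8:120915305-120964269). It held 15.0 and 12.9 kb in the WT clones, 17.2 and 20.0 kb in CREBBP-KO and 8.96 and 8.73 kb in EP300-KO, with the 3 genotypes apart from each other. The log2 difference between CREBBP-KO and WT was 0.45 ± 0.08 (SE), with a limma adjusted p of 0.041. That call was lost under 9 of 12 alternatives that kept the domain's ends, with adjusted p of 0.39 without the first CREBBP-KO clone and 0.31 with no centring. Leaving out the second WT clone raised the number of lost domains called lower and higher, among 216 that then met the rule. No share over all joined domains is given for that fit. The change is thus not read as a result about the lost domains.

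Of the member regions, 849 had 500 or more covered bases in 2 or more clones and entered the region test. None passed in CREBBP-KO against WT in either direction, and 65 (7.66%) had an unadjusted p under 0.05, against 8.83% over all regions tested. Over the 19860 regions tested, 0.0101% passed as lower and 0.0% as higher. On simulated data the region test called 30.0% of changes at a log2 of 1.0 and 70.0% at 2.0, so many changes could be missed. Without the mean-variance trend, 1 member region was lower and 2 were higher. The share called over all tested regions in that fit is not given, so nothing is read from these calls. Among the 1208 regions with a peak in both WT clones, 44 (3.64%) had none in either CREBBP-KO clone, against 4.94% over the genome. Of the 366 regions absent from EP300-KO, 192 (52.5%) had a peak in both CREBBP-KO clones, 133 in 1 and 41 in none. The same class in kept domains gave 53.1%, with 270 of 508 regions in both CREBBP-KO clones.

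Set directly against EP300-KO, the CREBBP-KO clones had more acetylated sequence in most lost domains, which the rule favours because it fixed the EP300-KO clones to be low. Both CREBBP-KO clones lay above both EP300-KO clones in 123 of 136 domains (90.4%), where the share over all joined domains was 82.9%. In limma, 93 were higher in CREBBP-KO (background 47.9%) and 1 was lower (background 2.17%). These calls draw on the EP300-KO values that chose the domains, and nothing is read from them or from their excess over the background. Fewer were called higher without EP300-KO clone 1 or without CREBBP-KO clone 2, when 147 and 137 domains met the rule. No share over all joined domains is given for those 2 fits. The one lower was the domain holding JUNB, with 8.05 and 9.75 kb in CREBBP-KO against 9.77 and 9.38 kb in EP300-KO, where the clones overlapped before centring. For EP300-KO against WT, the contrast of the rule itself, limma called 85 lost domains lower, with a background of 35.8%, and nothing is read from that. The median log2 difference from WT was -0.41 in the lost domains after centring, which removes a shift of -0.2 shared by regions covered in all clones. It was -0.19 over all joined domains and -0.1 in kept domains. The domains of BCL6, CD52 and JUNB, with the largest EP300-KO shares, were at 0.12, 0.07 and 0.02 after centring. The comparisons with WT share the same 2 control clones.

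To read the loss in clones that did not choose the domains, domains wide in 1 WT clone and not wide in 1 EP300-KO clone were selected and then measured in the other clone of each genotype. The 4 possible choices gave 252, 229, 203 and 184 domains, and the unused EP300-KO clone covered less than the unused WT clone in 243, 223, 196 and 178 of them. These are 96.4%, 97.4%, 96.6% and 96.7%, against 95%, 95.5%, 94.6% and 94.7% over all joined domains in the same clones, so nothing particular to the chosen domains is read from these counts. The median share in the unused clones was 73.6%, 68.0%, 70.6% and 65.9%. Over all 645 joined domains, the same pairs of clones gave 78.9%, 74.9%, 76.9% and 73.4%. The chosen domains had the lower median in every choice, in clones that played no part in choosing them except in drawing the joined domains. The choice left out domains wide in the choosing EP300-KO clone, while the 645 joined domains include domains wide in either EP300-KO clone. A lower median can follow from this difference in makeup alone, so it is not read as support for a loss. Each value compares 1 clone with 1 clone and has no replicate check.

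**Figure D5:**
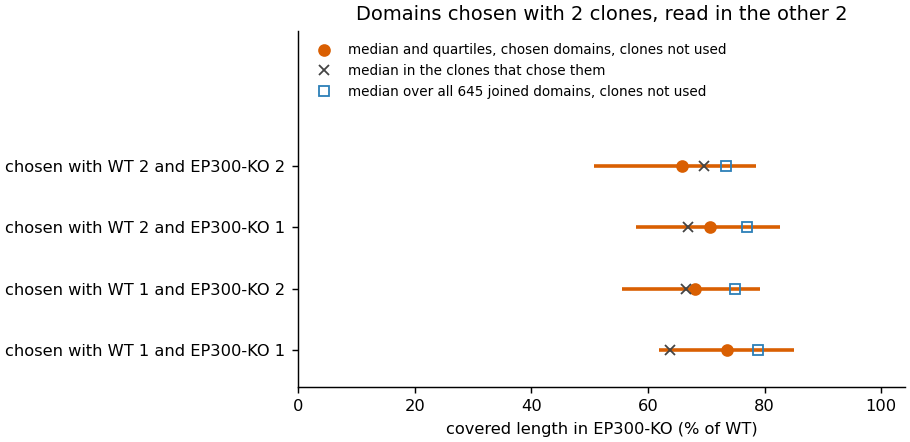
Covered length in EP300-KO as a percentage of WT (x axis) for domains chosen with 1 WT and 1 EP300-KO clone (rows): orange points and bars give the median and quartiles in the 2 clones not used, gray crosses the median in the choosing clones, and blue squares the median over all 645 joined domains in the clones not used. The orange medians lie between 65.9% and 73.6%, each to the left of its blue square.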

How the data were processed

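H3K27ac was measured by ChIP-seq in 6 clones, with 6 inputs that entered only through the peak lists. Per the labels' protocols, fixed chromatin was sheared to 200 to 500 bp and read from both ends over 150 bases. Per the submitters' processing notes, CASAVA 1.8, Bowtie2 2.1.0 and SAMtools 0.1.19 were used with hg19. The peak-calling program, not given in the sources used here, ran on each clone against its own input, per the file headers. Deposited files hold start, end and a score of unstated meaning for each peak. The score was used only for ranks and to cut lists to equal length. Starts were read as counted from 0, so a printed start is uncertain by 1 base.

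Covered bases per domain or region were compared with limma 3.58.1 (R 4.3.3, mean-variance trend, all 6 clones), adjusted over all 645 domains or 19860 regions. Regions needed 500 bases in 2 clones. On simulated data with 200 changed features, the test of CREBBP-KO against WT called 68.0% and 98.0% of the changed domains at log2 changes of 0.5 and 1.0, among 645 domains. It called 0.0% and 30.0% of the changed regions at these sizes, among 19860 regions. At log2 changes of 2.0 and 3.0 it called 70.0% and 66.0% of them. The exact test of 2 clones against 2 cannot go below p = 0.333. Domains were named by size rules: the 10 with most covered bases in WT, the 5 smallest and 5 largest EP300-KO shares, those nearest the limit and those passing in CREBBP-KO. Regions were named as the 5 longest in WT with no EP300-KO peak, and the 5 longest with a peak in all clones. The members, lists and tests were chosen with earlier results of these data known. Sequences of the regions themselves are not shown, since no hg19 genome was used here. A marker of the planned list is not reported here, for a reason that does not depend on its value.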

Additional observations from a re-analysis of the deposited data

How the results depend on the processing

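The number of lost domains was 101 with a stitching gap of 5 kb, 155 with 20 kb, 186 with a minimum of 8 kb, 79 with 15 kb and 108 with lists of equal length, and 136 to 216 with 1 clone left out. Their regions numbered 1191 with a gap of 5 kb, 1153 with lists of equal length and 1850 to 2862 with 1 clone left out, the highest without the second WT clone. The share of members in both WT clones that no EP300-KO clone has was 20.3% with lists of equal length, 45.9% when presence needed at least 50% of the region covered, and 30.4% to 45.2% with 1 clone left out.

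Against WT, CREBBP-KO domains called lower numbered 2 with a gap of 5 kb, 3 with a minimum of 15 kb and 0 with no centring or only the 4 clones compared, and 0 to 10 with 1 clone left out. Domains called higher numbered 0 with gaps of 5 and 20 kb, minimums of 8 and 15 kb, a pseudocount of 1000 bases, no centring, only the 4 clones compared and no mean-variance trend (added after seeing the data), and 0 to 11 with 1 clone left out. Member regions called lower numbered 1 and higher 2 without that trend, and 0 to 1 and 0 to 3 with 1 clone left out. Against EP300-KO, domains called lower in CREBBP-KO numbered 0 with a pseudocount of 1000 bases and no centring and 0 to 4 with 1 clone left out, and domains called higher 51 to 131. No share over all joined domains or all tested regions is given for these settings, and most of them changed which domains met the rule. The counts are thus a description, and they are not read against the background of the main fit. A group left with 1 clone was assumed to vary like the others. No paired analysis was possible because the clone names carry no number shared between genotypes. Library depth is unknown, so what it limits could not be measured.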
